A study of Mus musculus with 16 samples.

Results

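The MHC class I genes described here were 9 genes of the mouse: B2m, which encodes the shared light chain β2-microglobulin, the classical heavy chain genes H2-K1 and H2-D1, and the non-classical heavy chain genes H2-Q2, H2-Q4, H2-Q6, H2-Q7, H2-T22 and H2-T23. They were picked by gene symbol out of the 31053 genes counted in the lung and mesenteric lymph node (MLN) libraries and the 32285 genes counted in the mediastinal lymph node (medLN) and MLN libraries. No rule on measured values set the choice, but earlier results of these data were known when it was made. All 9 had at least 12 unique molecular identifiers (UMIs, each standing for one captured transcript) in each of the 12 samples.

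MHC class I molecules sit on the surface of nearly all nucleated cells and show peptides from inside the cell to CD8 T cells and natural killer cells. A heavy chain folds with β2-microglobulin in the endoplasmic reticulum, where the transporter TAP brings peptides that the proteasome has cut and chaperones help to load them. H2-K1 and H2-D1 present a wide range of peptides, H2-T23 encodes Qa-1, a ligand of the natural killer receptor CD94/NKG2A, H2-Q6 and H2-Q7 encode Qa-2 molecules, and the product of H2-T22 is seen by a group of γδ T cells. Interferons raise class I transcription through IRF factors and through the co-activator NLRC5.

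The cells were CD4+ T cells of 4get mice on the C57BL/6 background, whose Il4 reporter allele makes IL-4eGFP, taken 10 days after 500 larvae of the nematode Nippostrongylus brasiliensis were injected under the skin. In the first run, IL-4eGFP+ cells of perfused lung, which can still hold some intravascular cells, and of MLN were sorted from 2 mice aged 13 weeks, with 1 library per mouse and organ. In the second run, medLN and MLN of 2 other mice aged 10 weeks were marked with hashtag antibodies and pooled into 1 library of IL-4eGFP+ and 1 library of IL-4eGFP- cells, so that gate and library cannot be told apart. All mice carried the reporter, were infected and drank water with antibiotics for the first 5 days, so no uninfected animal was measured. IL-4eGFP+ node cells also include follicular helper T cells, which make IL-4 in these nodes.

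After filtering, 4714 cells of the first run and 16748 hashtag singlets of the second run were used, with 416 to 2462 cells and 2798232 to 14512767 UMIs per sample. Levels are given as CPM, the UMIs of a gene per 1000000 UMIs of the sample, with T cell receptor segment genes left out of the total. The 5 T cell genes Cd3e, Cd3d, Cd3g, Cd4 and Lat summed to 3808 to 5195 CPM in every sample, and the Th2 genes Il4, Gata3 and Il1rl1 to 1423 and 1736 CPM in lung, 558 and 618 CPM in MLN of the first run, 344 to 387 CPM in IL-4eGFP+ and 31.6 to 45.4 CPM in IL-4eGFP- node cells. The 2 runs were counted with different gene annotations, so levels are compared only within a run. Libraries shared at most 1.61% of the barcodes of the smaller one.

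The 8 heavy chain genes lie within 2046.7 kb of chromosome 17 (chr17:33996017-36042747, GRCm38), with H2-D1 to H2-Q7 in 181.0 kb of it, and B2m lies on chromosome 2 (chr2:122147686-122153083). In the GENCODE annotation, B2m overlaps Patl2 on the opposite strand, H2-Q4 overlaps the antisense gene Gm11131, and H2-T22 and H2-T23 overlap the antisense gene A930015D03Rik. The heavy chain genes are close copies of one another, so reads that fit more than one of them could be lost or placed wrongly in counting, and the values of single Q and T region genes carry that uncertainty.

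The promoters of 5 of the genes are shown, as examples of a classical heavy chain gene, of Q and T region genes with and without interferon-type motifs, and of the light chain gene. Each sequence holds the 250 bases before the transcription start that RefSeq gives in the build GRCm38.p6 (the first where there are several), 5′ to 3′ on the strand of the gene, with matches to 5 motifs in capitals: H2-K1 at chr17:34000348-34000597 on the minus strand, H2-Q7 at chr17:35438905-35439154 on the plus strand, H2-T22 at chr17:36042743-36042992 on the minus strand, H2-Q2 at chr17:35342057-35342306 on the plus strand and B2m at chr2:122147437-122147686 on the plus strand.
H2-K1: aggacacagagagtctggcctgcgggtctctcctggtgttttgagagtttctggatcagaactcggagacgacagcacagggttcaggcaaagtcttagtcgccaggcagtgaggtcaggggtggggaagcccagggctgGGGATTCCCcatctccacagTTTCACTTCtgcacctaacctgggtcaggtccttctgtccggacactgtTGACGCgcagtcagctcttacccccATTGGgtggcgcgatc
H2-Q7: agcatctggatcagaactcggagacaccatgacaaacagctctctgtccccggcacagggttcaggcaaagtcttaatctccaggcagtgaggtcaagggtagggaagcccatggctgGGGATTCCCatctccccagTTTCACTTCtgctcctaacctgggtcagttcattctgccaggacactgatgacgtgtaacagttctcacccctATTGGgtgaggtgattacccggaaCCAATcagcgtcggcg
H2-T22: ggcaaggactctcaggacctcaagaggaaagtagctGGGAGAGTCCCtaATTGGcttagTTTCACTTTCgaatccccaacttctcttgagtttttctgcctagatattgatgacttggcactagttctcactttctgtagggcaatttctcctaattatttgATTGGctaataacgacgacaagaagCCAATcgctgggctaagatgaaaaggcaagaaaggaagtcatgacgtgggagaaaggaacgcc
H2-Q2: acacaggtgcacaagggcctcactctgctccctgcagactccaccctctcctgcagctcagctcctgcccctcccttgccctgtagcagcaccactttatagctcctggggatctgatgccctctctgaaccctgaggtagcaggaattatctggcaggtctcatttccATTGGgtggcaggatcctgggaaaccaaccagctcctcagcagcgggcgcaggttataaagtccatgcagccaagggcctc
B2m: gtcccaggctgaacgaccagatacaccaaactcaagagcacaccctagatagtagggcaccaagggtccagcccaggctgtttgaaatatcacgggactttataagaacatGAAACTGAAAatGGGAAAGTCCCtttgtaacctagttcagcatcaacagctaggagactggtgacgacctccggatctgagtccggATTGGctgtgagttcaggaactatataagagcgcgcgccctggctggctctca
The motifs were searched on both strands in windows of 300 bases, from 250 before to 50 after the start. An interferon regulatory factor motif, GAANNGAAA, stood in 5 of the 9 windows (H2-K1, H2-D1, H2-Q4, H2-Q6 and H2-Q7) and in 7.52% of the 32817 promoters of the table. The interferon-response form with 1 more base in its middle, GAAANNGAAA, stood in 3 of 9 (B2m, H2-T22 and H2-T23) and in 3.43% of all. An NF-κB motif, GGGANTCCC with 1 to 3 free bases in its middle, stood in 7 of 9 and in 2.17% of all. TGACGC, a cyclic AMP response element-like motif, stood in 3 of 9 (H2-K1, H2-D1 and H2-Q4) and in 7.39% of all, and CCAAT in 9 of 9 and in 37.4% of all. The motifs did not overlap one another in these windows. Every window but that of H2-Q2, which held only CCAAT, thus had 1 of the 2 interferon-type forms.

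H2-K1, H2-D1 and B2m made up most of the class I UMIs in every sample. H2-K1 lay between 2087 and 3097 CPM, H2-D1 between 1703 and 2509 CPM and B2m between 1324 and 1630 CPM. H2-T23 lay between 132 and 234 CPM in the first run and between 336 and 420 CPM in the second. H2-Q7 lay between 238 and 459 CPM, H2-Q4 between 152 and 291 CPM, H2-T22 between 125 and 258 CPM and H2-Q6 between 50.8 and 96.3 CPM. Ranges over both runs also hold differences between the runs. H2-Q2 had by far the widest range, from 1.53 to 84.1 CPM. UMIs mark transcript 5′ ends and were not divided by gene length. Reads that fit more than 1 heavy chain gene could be lost or placed wrongly, so these ranges do not rank the genes. Together the 9 genes took 0.662% and 0.750% of all UMIs in lung 1 and lung 2 and 0.704% in both MLN samples of the first run. In the second run they took 0.618% to 0.663% in the 4 IL-4eGFP+ samples and 0.782% to 0.817% in the 4 IL-4eGFP- samples, so the gates did not overlap.

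**Figure D1:**
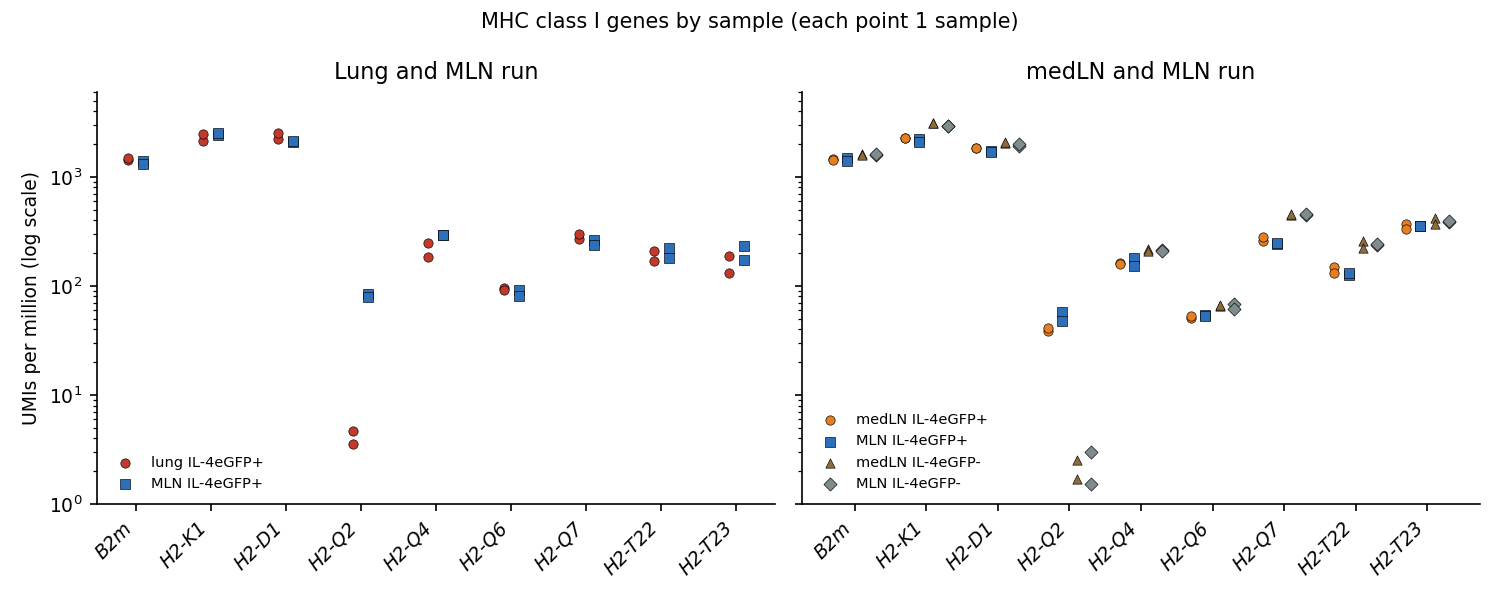
Level in CPM (log axis) of the 9 class I genes, each point 1 sample, with the lung and MLN run on the left and the medLN and MLN run on the right. H2-Q2 separates lung from MLN and IL-4eGFP- from IL-4eGFP+ samples widely. The points of H2-K1, H2-D1 and B2m lie closer together on the log axis, though their gates do not overlap.

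Cell by cell, class I transcripts were nearly universal. With every cell thinned to 2000 UMIs, H2-K1 was detected in 95.7% to 99.2% of the cells of each sample, and the median cell had 13 to 16 UMIs of the 9 genes. The spread between cells was wider in IL-4eGFP+ node cells, where the variance of these UMIs was 3.10 to 3.55 times their mean, than in IL-4eGFP- cells, where it was 2.27 to 2.35 times. The 5th percentile of the thinned cells was 4 to 6 class I UMIs in IL-4eGFP+ and 7 to 8 in IL-4eGFP- samples. H2-K1 and H2-D1 varied together among thinned cells of each sample, with a Pearson r of 0.247 to 0.470 over 408 to 2411 cells that share their library, and H2-K1 and B2m with an r of 0.133 to 0.341. These correlations describe cells within a sample, which are not replicates.

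**Figure D2:**
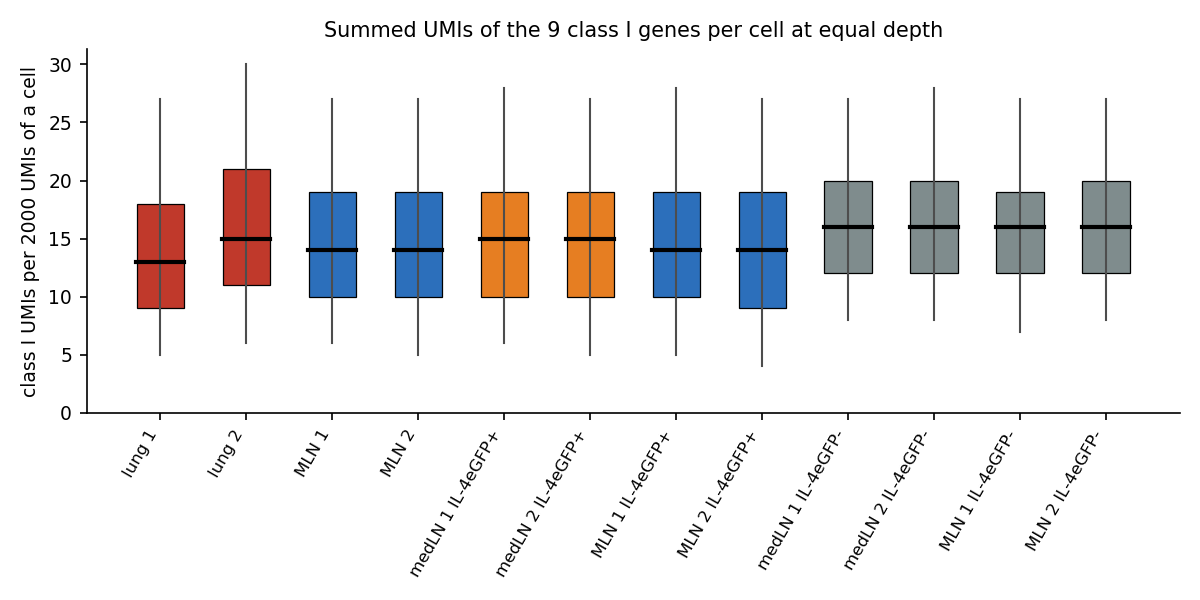
Summed UMIs of the 9 class I genes per cell with every cell thinned to 2000 UMIs, by sample. Thick lines are medians, boxes span the quartiles and thin lines the 5th to 95th percentile over cells; the 4 IL-4eGFP- samples all have a median of 16, the other samples 13 to 15.

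Between lung and MLN, H2-Q2 was the only class I gene called in IL-4eGFP+ cells in the main fit, which did not pair the organs by mouse. H2-Q2 stood at 84.1 and 78.6 CPM in MLN 1 and MLN 2 and at 3.54 and 4.66 CPM in lung 1 and lung 2, so every lung sample lay far below every MLN sample. Lung cells thus had 0.0421 and 0.0593 times the H2-Q2 level of MLN cells of the same mouse. The log2 fold change of lung over MLN was -4.24 ± 0.20 (SE, n = 2 against 2, edgeR quasi-likelihood test, adjusted p = 4.45e-07), on 30 and 13 UMIs in lung and 1214 and 350 in MLN. At 2000 UMIs per cell, 15.1% (95% Clopper-Pearson interval 13.7 to 16.6) and 12.7% (10.3 to 15.3) of MLN cells had an H2-Q2 UMI, against 0.187% (0.023 to 0.675) and 1.72% (0.693 to 3.50) of lung cells. These intervals cover counting error only.

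Of the 9 genes, 0 were called higher in lung, where 17.0% of the 10588 genes tested were, and 1 was called lower, where 14.0% were. The median log2 fold change of the 9 genes was 0.04, beside -0.01 over all genes tested. With UMI totals as the scaling, the median of all genes moved by -0.14 and the share of calls that were higher in lung from 54.9% to 39.0%.

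Neither classical heavy chain gene was called between the organs in the main fit, though H2-D1 was with the mouse as a block. H2-K1 stood at 2434 and 2500 CPM in MLN and 2110 and 2467 CPM in lung (log2 fold change 0.02 ± 0.13, edgeR adjusted p = 0.931). H2-D1 stood at 2070 and 2119 CPM in MLN and 2236 and 2509 CPM in lung (0.31 ± 0.13, edgeR adjusted p = 0.105). H2-D1 was above H2-K1 in lung, with UMI ratios of 1.06 and 1.02, and below it in MLN, with 0.850 and 0.848, so the ratio did not overlap between the organs.

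B2m had 1412 and 1324 CPM in MLN against 1416 and 1479 CPM in lung (0.21 ± 0.13, edgeR adjusted p = 0.239). H2-Q4 was at 290.5 and 290.8 CPM in MLN and at 183 and 247 CPM in lung (-0.32 ± 0.13, edgeR adjusted p = 0.0805). Both lung samples lay below both MLN samples for H2-Q4, but the gene was not called. Nor did H2-Q7 (0.31 ± 0.11, edgeR adjusted p = 0.0662), H2-Q6 (0.27 ± 0.13, 0.134), H2-T22 (0.04 ± 0.13, 0.847) and H2-T23 (-0.24 ± 0.16, 0.298) pass. With UMI totals as the scaling, H2-Q4 was called too (-0.45, adjusted p = 0.0383).

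With the mouse as a block, which pairs lung and MLN of the same animal, 4 of the 9 genes were called: H2-Q2 and H2-Q4 (adjusted p = 0.0241) lower and H2-D1 (0.0259) and H2-Q7 (0.0262) higher in lung, all by edgeR. The share of all genes called in that fit is not given here. The main fit called 31.0% of all genes in either direction, so the 4 calls do not set the class I genes apart. Interferon-inducible transcripts moved with the organ: 14 of 15 genes of an interferon list (Isg15, Ifit1, Mx1 and others) were lower in lung. Cells with at least 2 UMIs of that list made up 36.0% and 18.0% of the thinned cells of MLN 1 and MLN 2 and 5.99% and 14.0% of those of lung 1 and lung 2. With cells that had no UMI of the list only, H2-Q2 was still lower in lung, and H2-Q6 and H2-Q7 were called higher. Follicular helper genes moved as well, with 5 of 6 lower in lung, and 3 of 10 cell cycle genes, Mki67, Top2a and Nusap1, were higher (1.01, 0.83 and 0.67). Of the markers of T cells and leukocytes, Ptprc (-0.64) and Cd3d (-0.57) were lower in lung. Markers of other cells were low in CPM. The myeloid gene Lyz2 was at 15.2 and 9.43 CPM in MLN and 0 in both lung samples. The B cell gene Cd79b was at 2.42 and 2.25 CPM in MLN and 0.354 and 0.358 CPM in lung. Both were called lower in lung. Cells with a UMI of another cell type's marker, the invariant chain gene Cd74 included, were 21.8% and 25.9% of MLN 1 and MLN 2. In lung 1 and lung 2 they were 22.9% and 17.8%. With all these cells left out, H2-Q2 alone among the 9 class I genes was again called. The part of the cell cycle genes, Ptprc and Cd3d in the class I values was not tested.

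Several genes that make and load the peptides were lower in lung. Of 17 genes of the class I pathway, 7 were called lower and 0 higher in lung, with a median log2 fold change of -0.35. Among them were Rfxank, a subunit of the RFX factor that binds MHC promoters (-0.86 ± 0.18, edgeR adjusted p = 0.00546), the immunoproteasome genes Psmb10 (-0.74 ± 0.13, 0.0024) and Psmb9 (-0.58 ± 0.15, 0.0142), Tapbp, which encodes the loading chaperone tapasin (-0.57 ± 0.14, 0.0117), and the proteasome activator gene Psme1 (-0.43 ± 0.12, 0.0246). Of 19 other class I heavy chain genes, 5 were abundant enough to test, and Cd1d1, which presents lipids to NKT cells (-1.21 ± 0.16, 0.000497), and H2-T24 (-0.999 ± 0.24, 0.0117) were lower in lung.

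Among 12 genes inducible by interferon-γ, 2 were higher and 4 lower in lung. Cxcl10, a chemokine gene, was higher (2.75 ± 0.21, edgeR adjusted p = 1e-05), and the GTPase genes Iigp1, Ifi47 and Irgm1 were among those lower, with log2 fold changes of -1.85, -1.59 and -1.32. MHC class II genes, markers of antigen-presenting cells and counted here with the invariant chain gene Cd74, summed to 57.3 and 47.7 CPM in lung 1 and lung 2. In MLN 1 and MLN 2 they summed to 48.1 and 109 CPM. Cd74 alone had 55.2 and 44.1 CPM in lung and 43.8 and 79.0 CPM in MLN. H2-Aa, 1 of the 3 tested, was lower in lung (-4.40 ± 1.91, edgeR adjusted p = 0.0347), at 1.59 CPM in MLN 1 and 14.4 CPM in MLN 2.

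Between medLN and MLN, 0 of the 9 class I genes were called in either gate. In IL-4eGFP+ cells, where 1.28% of 11263 genes were called and 1392 had an unadjusted p under 0.05, H2-Q2 came nearest: 38.6 and 41.2 CPM in medLN and 57.1 and 47.3 CPM in MLN, with -0.39 ± 0.10 on the log2 scale (edgeR adjusted p = 0.132). In IL-4eGFP- cells, 0.178% of 10684 genes were called and 666 had an unadjusted p under 0.05; the 9 log2 fold changes ran from -0.16 for H2-Q2 to 0.02 for H2-K1. With UMI totals as the scaling, the higher share of the 19 calls there went from 84.2% to 94.7%. DESeq2 also called 0 of the 9 genes in both gates. None of the 17 class I pathway genes passed in either gate, and of the interferon-γ-inducible genes only Gbp2 did, lower in medLN IL-4eGFP+ cells (-0.58 ± 0.11, edgeR adjusted p = 0.0441).

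The gates differed in all 9 class I genes by share of the UMIs (CPM). Of these, 8 were lower and H2-Q2 was higher in IL-4eGFP+ than in IL-4eGFP- node cells. The 9 genes summed to 59315 to 65500 UMIs in the 1992 to 2058 cells of each IL-4eGFP+ sample. In each IL-4eGFP- sample they summed to 60895 to 62939 UMIs in 2091 to 2249 cells. As a mean per cell, each IL-4eGFP+ sample thus held more class I UMIs than its partner, so the lower values are smaller shares. These means include cells with at least 2 UMIs of 10 cell cycle genes at 2000 UMIs. Such cells numbered 194 to 249 per IL-4eGFP+ sample, at 12992 to 14429 UMIs per cell, and 24 to 37 per IL-4eGFP- sample. Median depths were 3166 to 3667 and 3268 to 3371 UMIs in that order. At equal depth the median cell had 14 or 15 class I UMIs in IL-4eGFP+ and 16 in IL-4eGFP- samples. The gate comparison called 30.4% of the 11535 genes tested lower and 31.9% higher, and the median log2 fold change was -0.50 for the 9 genes and -0.01 for all genes. Its p-values compare the hashtag samples of 2 libraries. The 4 samples of a gate are 2 nodes from each of 2 mice, and the main fit did not pair the gates by sample. With UMI totals as the scaling, the median of all genes moved by 0.19 and the higher share of the calls from 51.2% to 72.0%, and the 9 genes kept their calls and directions.

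H2-Q2 stood at 38.6 and 41.2 CPM in medLN and 57.1 and 47.3 CPM in MLN IL-4eGFP+ samples, and at 1.69, 2.53, 2.98 and 1.53 CPM in the 4 IL-4eGFP- samples. Each IL-4eGFP+ sample was 16.3 to 31.0 times its IL-4eGFP- partner of the same mouse and node, with 366 to 523 UMIs against 12 to 24. The log2 fold change was 4.20 ± 0.18 (n = 4 against 4 hashtag samples of 2 mice, edgeR adjusted p = 9.55e-10). At equal depth, 8.75% to 10.7% of IL-4eGFP+ cells and 0.152% to 0.589% of IL-4eGFP- cells had an H2-Q2 UMI, from libraries with median depths of 3166 to 3667 and 3268 to 3371 UMIs per cell. By mean level, the order was MLN IL-4eGFP+ (52.2 ± 6.9 CPM, SD, n = 2), medLN IL-4eGFP+ (39.9 ± 1.8), MLN IL-4eGFP- (2.26 ± 1.03) and medLN IL-4eGFP- (2.11 ± 0.59), and the nodes of a gate were not called as different.

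The other heavy chain genes took a smaller share of the UMIs in IL-4eGFP+ cells. H2-K1 stood at 2290, 2292, 2215 and 2087 CPM in the medLN and MLN IL-4eGFP+ samples and at 3097, 3090, 2947 and 2939 CPM in their IL-4eGFP- partners, so the gates did not overlap (-0.63 ± 0.03, edgeR adjusted p = 1.04e-08). H2-Q7 had 242 to 283 CPM against 450 to 459 CPM (-1.01 ± 0.05, 8.09e-09), and H2-T22 125 to 150 CPM against 222 to 258 CPM (-1.02 ± 0.06, 9.03e-08). These were the largest decreases among the 9 genes.

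H2-Q4 (-0.56 ± 0.05, edgeR adjusted p = 1.25e-06) and H2-Q6 (-0.50 ± 0.04, 1.76e-06) fell between these and H2-D1 (-0.37 ± 0.03, 1.46e-06), H2-T23 (-0.34 ± 0.05, 7.72e-05) and B2m (-0.34 ± 0.03, 2.93e-06). Among these, B2m was at 1405 to 1500 CPM in IL-4eGFP+ and 1590 to 1630 CPM in IL-4eGFP- samples, 0.862 to 0.944 times its partner. H2-T23 lay at 336 to 372 CPM in IL-4eGFP+ and 373 to 420 CPM in IL-4eGFP- samples, so the gates touched without overlap, and each IL-4eGFP+ sample was 0.885 to 0.923 times its partner. The log2 fold changes carry the TMM scaling of the fit, whereas the CPM ratios use UMI totals, so the 2 differ in size. Over the alternatives, the log2 fold change ran from -0.425 to -0.145 for B2m and from -0.38 to -0.146 for H2-T23. For H2-D1 it ran from -0.45 to -0.18, so the size of these decreases depended on the processing. The UMI ratio of H2-D1 to H2-K1 was 0.787 to 0.816 in IL-4eGFP+ and 0.654 to 0.684 in IL-4eGFP- samples.

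**Figure D3:**
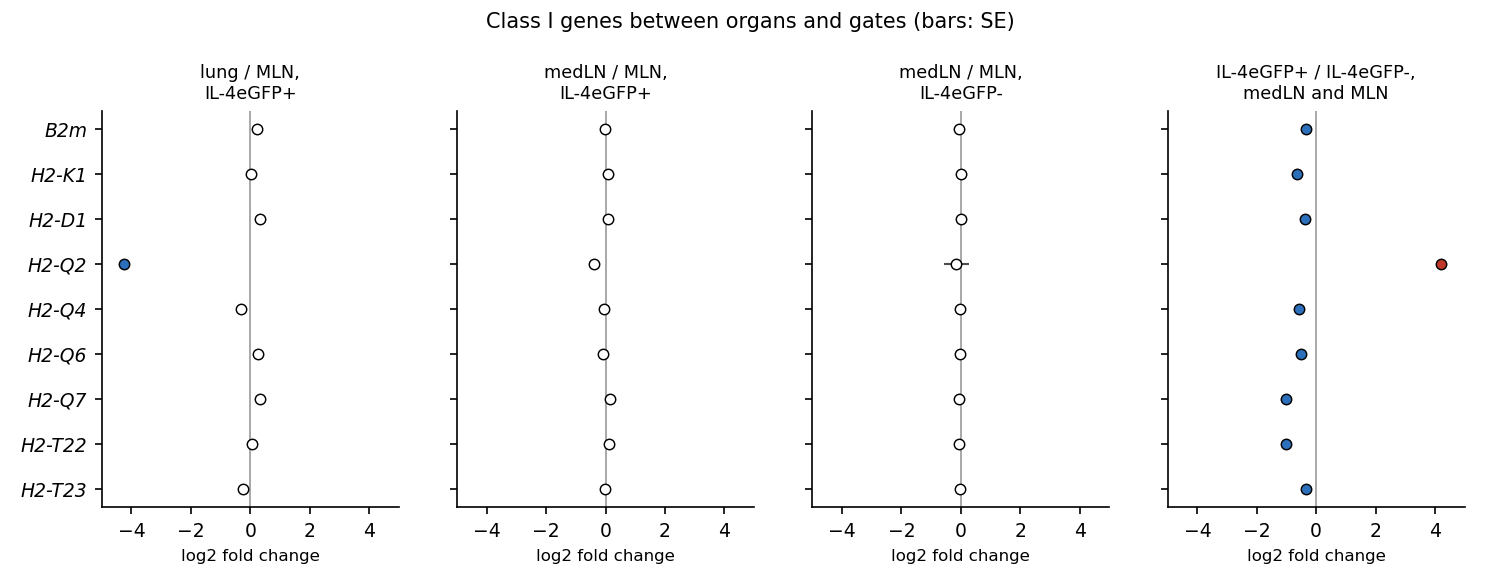
Log2 fold change of each class I gene (points, bars are SE) between organs and between gates by the edgeR quasi-likelihood test. Red points passed as higher and blue points as lower at an adjusted p under 0.05, open points did not pass; H2-Q2 stands at -4.24 in lung over MLN and at 4.20 in IL-4eGFP+ over IL-4eGFP-, opposite to the other 8 genes there.

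No class I gene was called as differing between medLN and MLN in the size of its gate difference. The organ by gate interaction called 0 of the 9 genes with edgeR and with DESeq2, where 0.156% of all genes passed and 807 had an unadjusted p under 0.05. The interaction was largest for H2-Q2 (-0.23 ± 0.37, edgeR adjusted p = 0.964), H2-Q7 (0.20 ± 0.07, 0.582) and H2-T22 (0.19 ± 0.12, 0.826). With UMI totals as the scaling, the higher share of its calls went from 44.4% to 32%.

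Class I pathway genes were called in both directions between the gates. Of the 17, 3 were higher in IL-4eGFP+ cells, all endoplasmic reticulum chaperones of glycoprotein folding: Calr (0.86 ± 0.04, edgeR adjusted p = 1.45e-08), Pdia3 (0.70 ± 0.04, 3.26e-08) and Canx (0.69 ± 0.05, 2.81e-07). The 10 that were lower included the class I co-activator Nlrc5 (-0.93 ± 0.08, 9.24e-07) and the peptide editor Tapbpl (-0.55 ± 0.07, 5.5e-05). Of the other class I heavy chain genes, 7 of 19 were tested and 4 were lower, H2-T24 (-0.55), Cd1d1 (-0.52), H2-M3 (-0.48) and Mr1 (-0.37). Of the 12 interferon-γ-inducible genes, 11 were lower and 0 higher, led by Iigp1 (-2.50 ± 0.15, 5.07e-08), the feedback inhibitor Socs1 (-1.60 ± 0.11, 2.14e-07), the transcription factor Irf1 (-1.18 ± 0.06, 1.58e-08), Gbp7 (-1.14 ± 0.10, 1.82e-06) and Ifi47 (-1.06 ± 0.07, 8.92e-08).

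Other cell features moved with the gate too. Of the interferon list, 11 of 14 genes tested were lower in IL-4eGFP+ cells, and the 9 class I genes kept their directions and calls in cells without a UMI of that list, with -0.78 for H2-K1 and 4.37 for H2-Q2. All 6 follicular helper genes were higher in IL-4eGFP+ cells, and 10 cell cycle genes summed to 1356 to 1716 CPM in IL-4eGFP+ and to 145 to 293 CPM in IL-4eGFP- samples; their part in the class I values was not tested. Myeloid markers (Lyz2, Csf1r, Fcer1g, Itgax and Cd68) summed to 25.1 to 81.2 CPM in IL-4eGFP+ and 10.2 to 28.4 CPM in IL-4eGFP- samples, with 3 of the 4 tested higher, while 0 of 4 B cell markers and 0 of 4 MHC class II genes passed. The CD8 gene Cd8b1 (-1.40) and the epithelial gene Epcam (-0.70) were lower in IL-4eGFP+ cells. Cells with a UMI of another cell type's marker were 17.3% to 27.9% of the IL-4eGFP+ and 13.2% to 17.3% of the IL-4eGFP- samples. With them left out, the 9 calls were the same, with -0.55 for H2-K1 and 4.42 for H2-Q2.

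The CPM of H2-Q2 was higher in cells with transcripts of a follicular helper gene list than in cells without them in each of the 12 samples. The 6 genes of that list, Cxcr5, Bcl6, Il21, Pdcd1, Sh2d1a and Tox2, which encode the follicle-homing receptor, the lineage factor and other parts of the program, were chosen after the H2-Q2 values were seen, so the values are a description without a test. Cells with at least 2 UMIs of the list at 2000 UMIs were set against cells with 0. In lung 1 and lung 2 the most abundant genes of the list were Pdcd1 (282 and 113 CPM) and Sh2d1a (73.0 and 101 CPM). Cxcr5 was at 6.13 and 2.15 CPM there. In IL-4eGFP- samples Sh2d1a was at 111 to 118 CPM and Cxcr5 at 5.85 to 7.40 CPM. Cells with these UMIs in lung and IL-4eGFP- samples thus need not be follicular helper cells. H2-Q2 was at 120 and 115 CPM with and 31.9 and 31.6 CPM without these UMIs in MLN 1 and MLN 2 of the first run. In IL-4eGFP+ node cells it was at 93.2 and 89.3 CPM with and 9.95 and 9.03 CPM without in medLN, and at 104 and 98.8 CPM with and 12.98 and 8.22 CPM without in MLN.

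At equal depth, 15.95% to 19.7% of the cells with follicular helper UMIs had an H2-Q2 UMI in these 6 samples, and 2.68% to 7.50% of those without. In lung the level was 6.96 CPM with and 0.967 CPM without in lung 1, on 10 and 5 UMIs, and 11.7 and 2.13 CPM in lung 2, on 3 and 4 UMIs. In thinned cells of lung 1, 0 of 213 with and 0 of 621 without follicular helper UMIs had an H2-Q2 UMI (95% Clopper-Pearson intervals 0 to 1.72% and 0 to 0.592%), so no difference was detectable there at equal depth. These limits hold for cells with a UMI at that depth, not for cells expressing the gene. IL-4eGFP- cells with these UMIs had 10.5 to 16.2 CPM on 4 or 5 UMIs per sample, and those without 0.333 to 2.00 CPM. Over the 10 samples with more than 3 UMIs in each class, the ratio of with to without ran from 3.64 to 12.02. H2-K1 had ratios of 0.940 to 1.41 and B2m of 0.808 to 1.19 over the 12 samples. Split by the Th2 genes in the same way, H2-Q2 was at 85.9 and 81.9 CPM with and 78.3 and 86.2 CPM without in MLN 1 and MLN 2, and in IL-4eGFP+ node samples the ratio was 0.887 to 1.23. In lung 1 it was lower with Th2 UMIs, 2.19 against 12.8 CPM, on 13 and 14 UMIs.

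**Figure D4:**
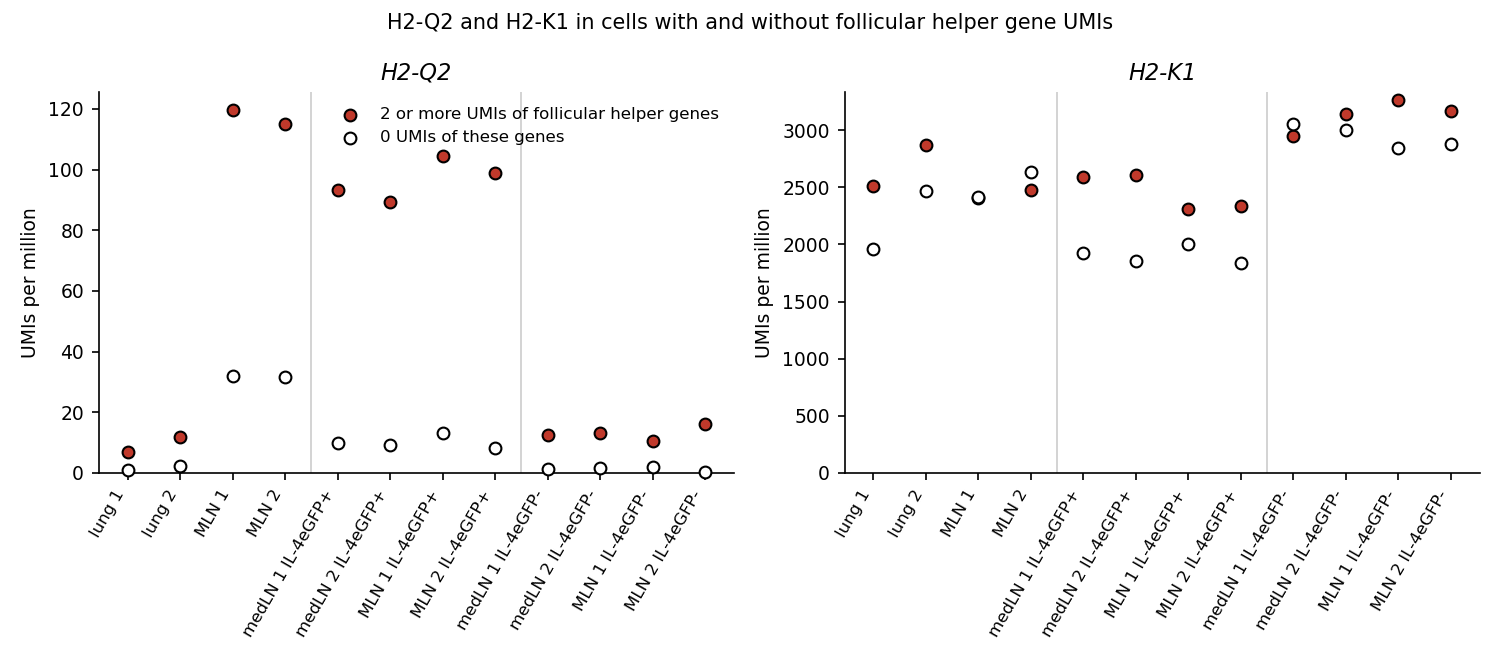
Level in CPM of H2-Q2 (left) and H2-K1 (right) in cells with 2 or more UMIs of follicular helper genes (red) and with 0 (open), 1 pair of points per sample. H2-Q2 is at 89.3 to 120 in the red points of MLN and medLN IL-4eGFP+ samples and at 8.22 to 31.9 in their open points, while the H2-K1 points of a sample differ by at most 1.41 times.

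Interferon-range cells were those with at least 2 UMIs of the interferon list at 2000 UMIs. The list had 15 genes in the lung and MLN run, 14 of them in the medLN and MLN run. In every group of samples, most class I genes took a larger share of the UMIs (CPM) in them than in cells with 0. Interferon-range cells held 0.865 to 0.901 times the UMIs per cell of the others in lung and MLN. In IL-4eGFP- node cells this was 0.902 to 0.968 times, and in IL-4eGFP+ node cells 0.634 to 0.749 times. A larger share thus need not mean more class I UMIs per cell. The 71 to 548 cells per sample with exactly 1 UMI of the list were left out, and both classes came from the same libraries. In lung and MLN IL-4eGFP+ cells, 8 of 9 class I genes were higher, where 2.44% of the 9225 genes tested were, and the median log2 fold change was 0.56 against 0.00 for all genes.

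H2-T22 rose most, from 162, 153, 159 and 191 CPM in the cells with 0 UMIs of MLN 1, MLN 2, lung 1 and lung 2 to 304, 285, 303 and 294 CPM in interferon-range cells (0.88 ± 0.07, edgeR adjusted p = 5.62e-07). The classes did not overlap. H2-Q6 (0.65 ± 0.12, 0.00472), H2-T23 (0.60 ± 0.10, 0.000884), H2-Q4 (0.58 ± 0.07, 5.29e-05), H2-Q7 (0.56 ± 0.07, 4.5e-05) and B2m (0.45 ± 0.05, 4.71e-05) followed, and H2-D1 (0.34 ± 0.04, 3.26e-05) and H2-K1 (0.31 ± 0.05, 0.000657) rose least. H2-Q2 had a log2 fold change of 0.10 ± 0.18 (0.924). In MLN 1 and MLN 2 it was at 88.5 and 69.96 CPM in the interferon-range cells and 81.7 and 84.3 CPM in the others. In lung 1 and lung 2 it was at 11.38 and 8.39 CPM against 2.725 and 4.10 CPM. The lung values rest on only 64 and 57 interferon-range cells.

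In IL-4eGFP+ node cells 9 of 9 passed as higher, where 14.8% of 9961 genes were higher and 16.4% lower. H2-T22 rose by 0.99 ± 0.06 (edgeR adjusted p = 5.44e-08), H2-T23 by 0.81 ± 0.05 (3.71e-08), H2-Q4 by 0.79 ± 0.06 (4.96e-07), H2-Q6 by 0.59 ± 0.09 (0.000194), H2-K1 by 0.57 ± 0.03 (3.04e-08), H2-Q7 by 0.56 ± 0.05 (2.31e-06), B2m by 0.54 ± 0.04 (7.09e-07) and H2-D1 by 0.40 ± 0.04 (1.77e-06). H2-Q2 rose by 0.46 ± 0.12 (0.0116), with 54.5, 52.1, 59.3 and 45.5 CPM in the interferon-range cells of medLN 1, medLN 2, MLN 1 and MLN 2 and 29.8, 32.7, 47.6 and 44.8 CPM in the others. That rise was not seen with the counts thinned to 2000 UMIs per cell (-0.02, adjusted p = 0.976), and without medLN 1 or medLN 2 its adjusted p was 0.0532 or 0.0538. Follicular helper genes (3 of 6), Ptprc (0.34) and the 5 T cell genes (0.18 to 0.33) were also higher and the 10 cell cycle genes lower there. MHC class II genes (4 of 4) and B cell markers (3 of 3 tested) were lower and 2 of 3 myeloid markers and Cd8b1 (0.73) higher in the same interferon-range cells, which had 0.634 to 0.749 times the UMIs per cell of the others, and their part in the class I values was not tested.

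In IL-4eGFP- cells 7 of the 8 genes tested were higher, where 2.79% of 9298 genes were higher and 1.48% lower, and H2-Q2 was too low to be tested. H2-T22 (0.61 ± 0.04, edgeR adjusted p = 3.29e-09) and H2-T23 (0.61 ± 0.04, 1.22e-09) rose most, before H2-Q4 (0.42 ± 0.05, 4e-06), B2m (0.25 ± 0.03, 6.07e-06), H2-D1 (0.20 ± 0.03, 0.000194), H2-K1 (0.19 ± 0.03, 0.000282) and H2-Q7 (0.17 ± 0.05, 0.0386). H2-Q6 did not pass (0.30 ± 0.08, 0.0534). The call of H2-Q7 was lost in 6 of the alternatives, among them DESeq2 (0.524), and with MLN 1, medLN 1 or medLN 2 left out. B cell markers (2 of 2 tested) were lower and Cd3g (0.12) higher in these interferon-range cells. The size of the response was not compared between the gates by a test.

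Of 17 class I pathway genes, 9 were called higher in interferon-range cells of lung and MLN, 11 in IL-4eGFP+ and 10 in IL-4eGFP- node cells, and 0, 2 and 1 were lower. Tap1, a subunit of the peptide transporter, rose by 0.82 ± 0.11, 0.84 ± 0.06 and 0.59 ± 0.06 in that order (edgeR adjusted p = 0.000145, 2.58e-07 and 3.58e-07), Tapbp by 0.77, 0.75 and 0.61 and Nlrc5 by 0.67, 1.28 and 0.67. Calr, higher in IL-4eGFP+ cells as a whole, was lower in their interferon-range cells (-0.51 ± 0.05, 3.62e-06).

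Of the other class I heavy chain genes, 4 of 19 were tested in each group, and 1, 3 and 2 were higher. H2-T24 rose by 1.64 ± 0.19, 1.64 ± 0.12 and 1.47 ± 0.11 (edgeR adjusted p = 4.77e-05, 1.71e-07 and 1.02e-08), more than any of the 9 genes. All interferon-γ-inducible genes tested were higher, 12 of 12, 12 of 12 and 11 of 11, with Iigp1 at 3.53, 3.33 and 2.75 and Irgm1 at 2.11, 2.12 and 1.67.

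**Figure D5:**
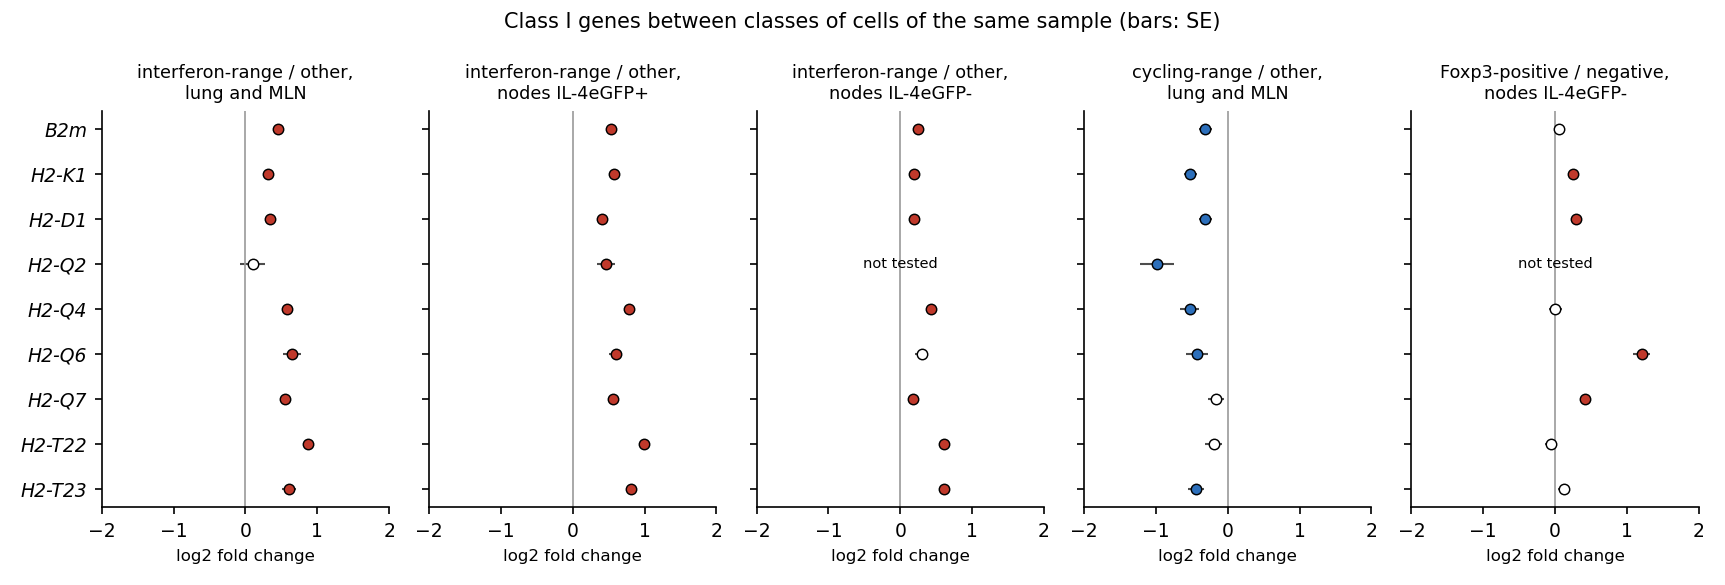
Log2 fold change of each class I gene (points, bars are SE) between classes of cells of the same samples, with colours for called genes as red higher, blue lower and open not called. H2-T22 has the highest value in each interferon-range panel, H2-Q2 the lowest in the cycling-range panel and H2-Q6 the highest in the Foxp3 panel.

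Cycling-range cells of lung and MLN were those with at least 2 UMIs of 10 cell cycle genes such as Mki67 and Top2a. Most class I genes took a smaller share of the UMIs (CPM) in them than in cells with 0. Cycling-range cells also held 2.02 to 2.86 times the UMIs per cell of the others. The CPM of H2-K1 was 0.535 to 0.787 times that of the others, of H2-D1 0.687 to 0.853 times and of B2m 0.658 to 0.867 times. For these genes the smaller share thus went with more, not fewer, UMIs per cell. The 27 to 100 cycling-range cells per sample were few, and 34 to 168 cells with exactly 1 UMI of the cell cycle genes were left out. Of the 9 genes, 7 were lower and 0 higher, where 18.1% of 8778 genes were lower and 21.1% higher, and the median log2 fold change was -0.43 beside -0.04 for all genes.

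H2-K1 stood at 1387, 1600, 1740 and 1966 CPM in cycling-range cells of MLN 1, MLN 2, lung 1 and lung 2 and at 2593, 2596, 2211 and 2596 CPM in the others (-0.52 ± 0.09, edgeR adjusted p = 0.000104), with no overlap. H2-Q2 (-0.98 ± 0.23, 0.00115), H2-Q4 (-0.53 ± 0.13, 0.00175), H2-T23 (-0.44 ± 0.11, 0.0032), H2-Q6 (-0.43 ± 0.15, 0.0284), H2-D1 (-0.31 ± 0.09, 0.00712) and B2m (-0.31 ± 0.09, 0.00862) were lower too. H2-Q7 (-0.16 ± 0.11, 0.282) and H2-T22 (-0.20 ± 0.12, 0.215) did not pass. The calls leaned on MLN 1: without it, only H2-K1 and H2-T23 were called. Cycling-range cells held 2.02 to 2.86 times the UMIs per cell of the others, and with counts thinned to 2000 UMIs per cell H2-Q2 (-0.25, edgeR adjusted p = 0.712), H2-Q6 (-0.57, 0.145) and H2-T23 (-0.51, 0.0733) were not called. H2-Q6 lost its call in 5 of the alternatives, with a value of -0.07 in the lung libraries alone.

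Cycling-range cells also had lower levels of 9 of 11 interferon list genes tested, of 3 of 5 follicular helper genes, of Ptprc (-0.59) and of the 5 T cell genes (-0.64 to -0.31), and 6 of 11 interferon-γ-inducible genes were lower and 0 higher, with Socs1 at -1.01 and Gbp7 at -0.74. Their part in the class I values was not tested. Of the class I pathway, 3 genes were higher, with Canx at 0.705 ± 0.12 (edgeR adjusted p = 6.42e-05) and Calr at 0.56 ± 0.12 (0.000711), and 3 were lower, Rfxank (-1.06 ± 0.31, 0.00478), Nlrc5 (-0.67 ± 0.19, 0.00539) and Tap2 (-0.37 ± 0.12, 0.0129). Cd1d1, 1 of 3 other heavy chain genes tested, was lower (-1.62 ± 0.32, 8.34e-05).

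Foxp3-positive IL-4eGFP- node cells, those with a UMI of the regulatory T cell factor Foxp3 at 2000 UMIs, had higher levels of 4 class I genes than Foxp3-negative cells, H2-Q6 above all. There were 124 to 174 such cells per sample. Some cells classed as negative at that depth had a Foxp3 UMI in their full counts, and Foxp3 stood at 6.25 to 14.3 CPM in them against 588 to 668 CPM in the positive class. Of 8 genes tested, 4 were higher and 0 lower, where 11.3% of 9726 genes were higher and 8.76% lower. The median log2 fold change was 0.18, beside -0.01 for all genes.

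H2-Q6 stood at 153, 112, 152 and 161 CPM in Foxp3-positive cells of medLN 1, medLN 2, MLN 1 and MLN 2, and at 57.3, 57.2, 58.7 and 53.0 CPM in Foxp3-negative cells. Each sample showed 1.96 to 3.03 times the level, without overlap (1.20 ± 0.11, edgeR adjusted p = 4.52e-09). H2-Q7, its neighbour, was at 618 to 657 against 425 to 433 CPM (0.42 ± 0.07, 1.79e-05). H2-D1 (0.30 ± 0.06, 0.00028) and H2-K1 (0.24 ± 0.06, 0.00266) were higher as well, the last with an adjusted p of 0.0504 without medLN 1.

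B2m (0.06 ± 0.06, edgeR adjusted p = 0.566), H2-Q4 (0.01 ± 0.09, 0.981), H2-T22 (-0.06 ± 0.08, 0.684) and H2-T23 (0.12 ± 0.07, 0.295) did not pass. With UMI totals as the scaling, the median of all genes moved by 0.14, the higher share of the calls went from 56.4% to 76.0%, and B2m (0.19, adjusted p = 0.00632) and H2-T23 (0.26, 0.00877) were called too. Under that scaling H2-T22 turned from -0.06 to 0.08, so no direction is given for it.

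Of the class I pathway, 5 of 17 genes were higher in Foxp3-positive cells and 0 lower: Nlrc5 (0.40 ± 0.13, edgeR adjusted p = 0.0285), Tapbp (0.35 ± 0.09, 0.00338), Calr (0.33 ± 0.09, 0.0116), Tap2 (0.26 ± 0.09, 0.0293) and Pdia3 (0.26 ± 0.08, 0.0171). Among 11 interferon-γ-inducible genes tested, Gbp7 (1.15 ± 0.11, 1.2e-08), Iigp1 (0.66 ± 0.21, 0.0272) and Igtp (0.28 ± 0.10, 0.0362) were higher and Ifi47 (-0.25 ± 0.08, 0.0221) lower. Of the interferon list, 5 of 14 genes were lower, and of the MHC class II genes 3 of 4 were lower, while 8 of 10 cell cycle and 4 of 5 follicular helper genes were higher. H2-Aa, 1 of these class II genes, was at 0 in the Foxp3-positive class of every sample and at up to 74.1 CPM in the negative class. The B cell gene Cd79a, at 7.21 to 15.8 CPM in the negative class, and the myeloid gene Fcer1g, at 6.14 to 9.12 CPM, were lower, each at 0 in the positive class of all samples but medLN 1, whereas Cd79b (0.99), Epcam (2.37), Ptprc (0.24) and Cd3e (0.20) were higher and Cd4 (-0.49) and Lat (-0.33) lower. The part of these markers in the class I values was not tested. Of the 4 other class I heavy chain genes tested, 0 passed.

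The hashtag antibodies gave a surface readout that includes class I protein, since each hashtag is a mix of antibodies to MHC class I and to CD45. The 2 targets cannot be told apart in it. The median UMIs of a cell's own hashtag were 1072, 2196.5, 1046 and 986 in the medLN 1, medLN 2, MLN 1 and MLN 2 IL-4eGFP+ samples and 1278, 2512, 1191 and 1594 in their IL-4eGFP- partners. Every IL-4eGFP+ sample was lower than its partner, at 0.619 to 0.878 times, but the gates overlapped.

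The means were 1325 ± 582 and 1644 ± 604 UMIs (SD, n = 4 each), and the difference of -319 did not pass the exact two-sided permutation test (p = 0.457, smallest possible 0.0286). An exact sign-flip permutation test over the 4 pairs gave p = 0.125, the smallest that 4 pairs allow. Each organ and mouse had another hashtag, so samples of a gate differ in antibody as well as in tissue. Hashtag UMIs were raw counts from a separate library per gate, with no scaling for library depth. The RNA of Ptprc, which encodes CD45, was at 1020 to 1100 CPM in IL-4eGFP+ and at 708 to 766 CPM in IL-4eGFP- samples. The part of CD45 in the hashtag UMIs was not tested. Within samples, the Pearson r of hashtag UMIs and class I UMIs at 2000 UMIs (both log2) was -0.00 to 0.105 over 1746 to 2037 cells. Hashtag UMIs also rose with the depth of a cell (r of 0.178 to 0.403, both log2). Thinning takes depth out of the class I values only, so the low r does not show the 2 to be unrelated per cell.

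The 5 genes whose level over the 12 samples was most like the class I sum, by Pearson r of log2 CPM centred within each run among 2964 genes of 50 CPM or more, were Ripor2 (0.976), Igfbp4 (0.975), Arhgap15 (0.972), Zcchc7 (0.972) and Myc (0.966). Among the 9 genes themselves, H2-K1 had an r of 0.983 with the sum, of which it is a part, H2-T23 of 0.460 and H2-Q2 of -0.755. The samples share libraries and runs, so these values are descriptions. Chosen after its values were seen, the genes most like H2-Q2 were Hpcal1 (0.995), Stx6 (0.994), Pebp1 (0.992), Itgal (0.992) and Lrmp (0.992).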

How the data were processed

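UMI counts per gene and cell were deposited by the authors as unnormalized matrices made with Cell Ranger (versions 2.1.1, 3.0.1 and 6.1.2 in the submitters' processing notes, builds mm10 and GRCm38). A barcode was kept if its UMIs and its detected genes both exceeded 500, mitochondrial transcripts made up less than 7% and its novelty (log genes over log UMIs) was above 0.8. In the lung and MLN run cells also needed α and β T cell receptor chains, which left 4714 of 6319 barcodes, with 286 cells holding surplus chains. In the medLN and MLN run the deposited hashtag counts were assigned by HTODemux (Seurat 5.3.0), which left 16748 singlets of 19683 barcodes; 2 libraries gave 1256 and 1280 doublets. Counts were summed per sample, or per class of cells within a sample with at least 20 cells, and tested with edgeR 4.0.16 (quasi-likelihood, filterByExpr, TMM, Benjamini-Hochberg over all genes tested, threshold 0.05); class comparisons had the sample as a block. The scripts were tested on simulated data. Replicates are mice or hashtag samples. Same-numbered samples come from the same mice; their deviations from the group means correlated at 0.04 between lung and MLN and at 0.117 to 0.235 in the other comparisons. All 9 genes and, from each list, up to 5 called genes with the largest change are named; 1 listed gene is not reported here. The genes, lists and tests were chosen with earlier results of these data known. Alternatives were DESeq2 1.42.0, other scalings and filters, thinning to 2000 UMIs, and leaving out samples or cells. Coordinates are from GENCODE (GRCm38) and promoters from RefSeq.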

Additional observations from a re-analysis of the deposited data

Results flagged for a closer look

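Among the 4 IL-4eGFP+ hashtag samples, medLN 2 stood apart in the median UMIs of its own hashtag, with 2196.5 against 986, 1046 and 1072 in the others; the gap to the nearest sample was 0.929 of the range. In all, 24 groups of 4 hashtag samples were examined, by gate. The values were the CPM of each class I gene, the class I share, the ratio of H2-D1 to H2-K1 and the hashtag UMIs. Chance flags about 1 in 20 of such groups. The 4 samples here also differ in their hashtag antibody. The IL-4eGFP- sample of the same mouse and node, with the same antibody, also had the highest value of its gate, 2512.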

How the results depend on the processing

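Between lung and MLN, the main fit called 31.0% of all genes in either direction, and the shares in the alternatives are not given here. Of the 9 class I genes, the main fit called 1 (H2-Q2). The count was 2 with UMI totals as the scaling, 2 without the filter on low counts and 2 with cells thinned to 2000 UMIs. It was 3 in cells without interferon list UMIs and 4 with the replicate block. Leaving out 1 sample gave 1 to 3, with 3 (H2-Q2, H2-Q4 and H2-Q6) without lung 2. Between medLN and MLN IL-4eGFP+ cells, 0 became 1 (H2-Q2) in cells without interferon list UMIs, and 0 to 1 with 1 sample left out, the 1 without MLN 2. The replicate block changed no other call between organs or gates; where the sample was already the block, 8 calls for interferon-range cells of lung and MLN became 1 with no replicate block (H2-T22) and 5 in the lung libraries only, and 7 for cycling-range cells became 2 with no replicate block (H2-K1 and H2-Q4), 4 with thinned counts and 4 in the lung libraries only. With 1 sample left out, the cycling-range count ran from 2 (without MLN 1) to 8. In interferon-range IL-4eGFP+ node cells, H2-Q2 turned to -0.017 with thinned counts. The causes were not tested, except that leaving out samples or cells also lowers the counts. The hashtag difference was -319 UMIs in the pairing by replicate block too, and ran from -609 without medLN 2 IL-4eGFP+ to -29.2 without medLN 2 IL-4eGFP-. Of the planned single-gene values, 886 kept their direction and side of the threshold, 45 were not called in either setting and changed sign, 33 lost and 14 gained a call. The 9 gate calls and H2-Q2 between lung and MLN held in every alternative run, including those chosen after seeing the data (total UMIs, single organs); the pairing and leave-outs of the hashtag test were also chosen then. Depth limits H2-Q2 in lung and IL-4eGFP- cells, with 12 to 30 UMIs per sample.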
